A study of Mesocricetus auratus with 38 samples.

Results

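Transcripts of 8 genes of serine and glycine metabolism were looked up in liver RNA-seq tables of Golden Syrian hamsters: Phgdh, Psat1, Psph, Sds, Gldc, Amt, Gcsh and Glyctk. They were chosen by symbol, and 6 of the 8 were among the 14631 symbols of the count and TPM tables. All 6 passed the filter on low counts. Psat1 and Gcsh were not analysed here. The libraries came from 4 groups of male hamsters aged 22 weeks. The control group (9 libraries, labelled Chow diet) had a normal diet, in which fat gave 11% of the calories, for 12 weeks. The HFD group (10 libraries) had for the same 12 weeks a high-fat diet in which fat gave 23% of the calories and to which cholesterol was added, with a placebo in the final weeks. The HFD + MI_D1 group (Dose I, 9 libraries) and the HFD + MI_D2 group (Dose II, 10 libraries) were fed the HFD and also received combined metabolic activators (CMA) in the final 4 weeks. The mixture consisted of L-carnitine, N-acetylcysteine (NAC), nicotinamide riboside (NR) and betaine. The first 3 were given by mouth at 200 mg/kg each for Dose I and 400 mg/kg each for Dose II, and betaine was given in the drinking water at 400 and 800 mg/kg. All animals were killed after a diurnal fast of some hours. All 3 HFD-fed groups shared the diet, and both CMA groups received all 4 agents, so the agents cannot be told apart.

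Serine is made from the glycolytic intermediate 3-phosphoglycerate in a short chain of reactions that starts with Phgdh and ends with Psph. Serine and glycine are interconverted by the serine hydroxymethyltransferases Shmt1 and Shmt2, and the mitochondrial glycine cleavage system, built of the P protein (Gldc), the T protein (Amt), the H protein (Gcsh) and the L protein (Dld), breaks glycine down and passes a carbon unit to folate. In the liver, serine is also degraded to pyruvate by serine dehydratase (Sds), an enzyme known for its induction by fasting, glucagon and protein-rich diets, and the liver is a main site of glycine breakdown. Betaine gives up its methyl groups to become dimethylglycine, sarcosine and finally glycine, so a mixture that holds betaine feeds into the same pathway.

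The libraries held between 4.08e+06 and 1.04e+07 estimated counts. In the study 1 control library, not named in its text, was removed after a principal component analysis. Control replicate 5 scored 19.2 on the first component of the 500 most variable genes, against -23.1 to -12.7 for the other 8 controls, and values are given over the 37 libraries without it, with all 38 libraries beside them where a call given here differs. Genes were tested with edgeR's quasi-likelihood test, and a gene was called changed at a Benjamini-Hochberg adjusted p under 0.1 over all 9099 genes tested. The median log2 fold change of all genes lay within 0.012 of 0 in each comparison. Levels are given as CPM (counts scaled to the library's normalized total), and levels of different genes are compared only as TPM, which also divides by transcript length. In bulk tissue, fewer cells of a type and less RNA per cell cannot be told apart.

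Among the 6 genes, transcripts of serine and glycine breakdown and of glycerate kinase were more abundant than those of serine synthesis. Mean TPM over the 37 libraries was 102.6 for Glyctk, 80.2 for Sds, 38.7 for Amt and 32.9 for Gldc, but only 5.41 for Psph and 3.26 for Phgdh. On this scale Glyctk lay above 95.1% of the 14631 genes, Sds above 93.9% and Phgdh above 55.4%. The 2 synthesis genes rested on few reads, with 6 to 62 estimated counts of Phgdh and 3 to 30.0 of Psph per library, against at least 245 of Gldc, 567 of Amt and 834 of Glyctk and up to 2441 of Sds.

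**Figure D1:**
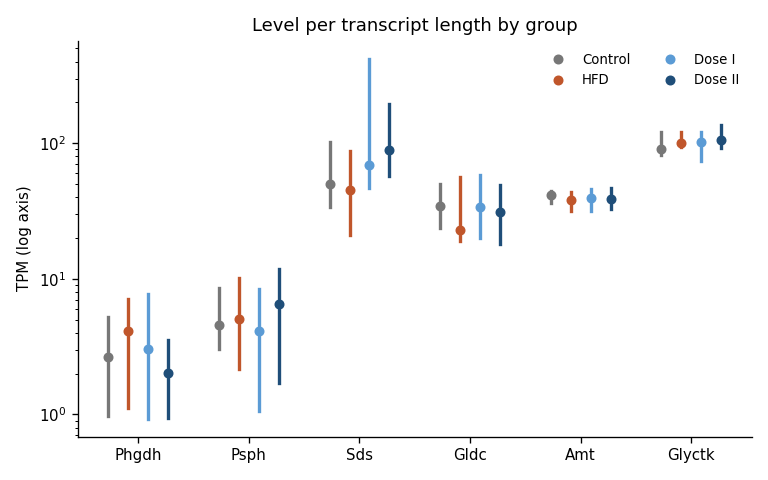
Level per transcript length (TPM, log axis) of the 6 genes in the control (n = 8), HFD (n = 10), Dose I (n = 9) and Dose II (n = 10) groups, with the point at the median and the line from the lowest to the highest liver. Psph and Phgdh, with means of 5.41 and 3.26 TPM, lie below the other 4 genes, whose means are 32.9 TPM and above.

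Phgdh, which catalyses the first and committed step of serine synthesis, was lower in the Dose II group than in the HFD group. Its level ranged from 1.40 to 9.04 CPM in the HFD group (median 5.54), from 1.18 to 10.8 in the Dose I group (median 4.41), from 1.23 to 4.71 in the Dose II group (median 2.94) and from 1.23 to 7.06 in the control group (median 3.49). Every one of the 10 Dose II livers was below the HFD median and 7 of the 10 HFD livers were above every Dose II liver, but the other 3 HFD livers lay within the Dose II range. The log2 fold change of Phgdh for Dose II vs. HFD was -0.96 (SE 0.31, 95% interval -1.60 to -0.33), with an adjusted p of 0.0864 by edgeR over 37 libraries and 0.117 over 38, and 0.0488 by DESeq2. Dose I livers spanned the whole range, and the log2 fold change for Dose I vs. HFD was -0.19 (SE 0.31, edgeR adjusted p = 0.891). For Phgdh in the HFD group against the control group it was 0.51 (SE 0.33, 95% interval -0.15 to 1.18, edgeR adjusted p = 0.248), with 8 of 10 HFD livers above the control median. The group means in rising order were Dose II (2.87 ± 1.26 CPM, SD, n = 10), control (3.94 ± 1.96, n = 8), Dose I (5.01 ± 3.12, n = 9) and HFD (5.70 ± 2.28, n = 10), and no neighbours in this order passed the test. The Phgdh call for Dose II vs. HFD was close to the threshold. It was lost in 13 of the 20 fits that left out 1 library of these groups (HFD replicates 1, 2, 3, 5, 7, 8 and 10 and Dose II replicates 2, 3, 4, 5, 8 and 9), and over all 20 fits the log2 fold change stayed between -1.10 and -0.87 and the highest edgeR adjusted p was 0.156.

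Psph, the phosphatase of the last step of serine synthesis, did not pass the test in any comparison. Its level was 2.04 ± 0.64 CPM (SD, n = 10) in the HFD group, 1.75 ± 0.87 (n = 9) in the Dose I group, 2.12 ± 1.05 (n = 10) in the Dose II group and 1.83 ± 0.82 (n = 8) in the control group. The ranges of all 4 groups overlapped, with the lowest liver at 0.516 CPM in the Dose I group and the highest at 4.19 in the Dose II group. The log2 fold change of Psph was 0.10 (SE 0.29) for HFD vs. control, -0.22 (SE 0.29) for Dose I vs. HFD and 0.04 (SE 0.27, 95% interval -0.51 to 0.59) for Dose II vs. HFD by edgeR. Across the 37 livers, after the group means were taken out, the ranks of Psph and Phgdh showed little relation (Spearman rho 0.083). With only 3 to 30.0 estimated counts of Psph per library, a rho near 0 cannot show that the genes vary independently.

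Sds, the serine dehydratase, rose at Dose II against the HFD group, and its Dose I mean was higher still without passing the edgeR test. The HFD livers ranged from 18.3 to 79.3 CPM (median 40.4), the Dose I livers from 43.6 to 410.9 (median 65.1), the Dose II livers from 52.5 to 201.7 (median 84.1) and the control livers from 29.6 to 90.3 (median 43.1). All 9 Dose I livers and all 10 Dose II livers were above the HFD median and above the control median. With control replicate 5 the control median was 45.3 CPM, and Dose I replicate 1 (43.6 CPM) lay below it. The ranges still overlapped: 4 HFD livers reached the levels of the CMA groups, the other 6 lay below every CMA liver, and 6 of 10 Dose II livers and 3 of 9 Dose I livers lay above every HFD liver. The group means in rising order were HFD (45.4 ± 22.97 CPM, SD, n = 10), control (49.8 ± 20.6, n = 8), Dose II (95.9 ± 43.8, n = 10) and Dose I (109.97 ± 116.1, n = 9), and of neighbours in this order only control and Dose II differed by the test. For Dose II vs. HFD the log2 fold change was 1.08 (SE 0.34, 95% interval 0.40 to 1.76), a fold of 2.12, with an edgeR adjusted p of 0.0691 over 37 libraries and 0.0919 over 38. For Dose I vs. HFD the log2 fold change of Sds was 1.28 (SE 0.34, 95% interval 0.59 to 1.97) with an edgeR adjusted p of 0.147, which missed the threshold, while DESeq2 gave 1.28 with an adjusted p of 0.0490.

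The size of the Dose I value of Sds rested on 1 liver. Dose I replicate 8 had 410.9 CPM and the next highest Dose I liver 128.4 CPM, and without replicate 8 the log2 fold change against HFD was 0.67 (SE 0.27, edgeR adjusted p = 0.513). The call for Dose II vs. HFD was lost without HFD replicate 5, 6, 7, 8 or 9 or Dose II replicate 7 or 8, with adjusted p of up to 0.165 by edgeR, and over all 20 fits the log2 fold change stayed between 0.89 and 1.19. With both doses set together against HFD, a contrast chosen after the data were seen, the log2 fold change of Sds was 1.18 (SE 0.30, 95% interval 0.56 to 1.80, edgeR adjusted p = 0.0259), and leaving out any single library of these 3 groups kept the adjusted p at or below 0.0650. Without Dose I replicate 8 this value was 0.88 (SE 0.24, edgeR adjusted p = 0.0380). In that contrast 1 of the 6 genes was called, against 4.91% of all genes tested. The doses themselves did not differ by more than their spread, with a log2 fold change of -0.20 for Dose II vs. Dose I (SE 0.34, 95% interval -0.88 to 0.48), which turned to 0.41 (SE 0.27) without Dose I replicate 8. For HFD vs. control the log2 fold change of Sds was -0.15 (SE 0.36, 95% interval -0.88 to 0.58, edgeR adjusted p = 0.793). Sds also rose against the control group, by 1.13 (SE 0.37, edgeR adjusted p = 0.0158) at Dose I and by 0.93 (SE 0.36, edgeR adjusted p = 0.0344) at Dose II on the log2 scale. Without Dose I replicate 8, the first of these was 0.53 (SE 0.29, edgeR adjusted p = 0.169).

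**Figure D2:**
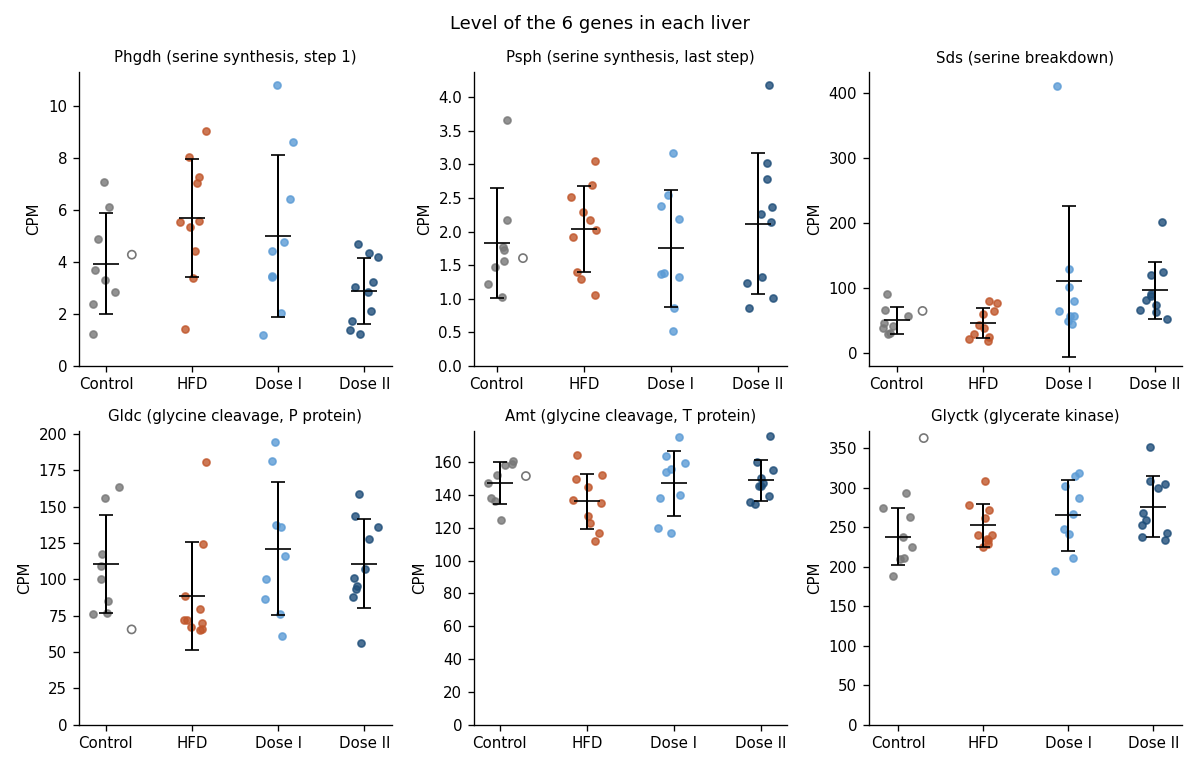
CPM of each gene in each liver by group (points), with the mean and SD (black, 8 control, 10 HFD, 9 Dose I and 10 Dose II livers). The open circle is control replicate 5, which is not in the mean. For Sds, the Dose I mean and SD are drawn up by 1 liver at 410.9 CPM, and for Phgdh the Dose II livers lie between 1.23 and 4.71 CPM.

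Within groups, the levels of Phgdh and Sds showed little relation. After the group means were taken out, their Spearman rho over 37 livers was 0.103. Dose I replicate 8, which had the highest Sds level of all, had 2.02 CPM of Phgdh, whereas Dose II replicate 7, with the second highest Sds level, had 4.18 CPM of Phgdh. Phgdh ranked most like Glyctk among the 6 genes (rho 0.651), and Sds most like Gldc (rho 0.497). These are descriptions over livers that share library depth and composition.

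**Figure D3:**
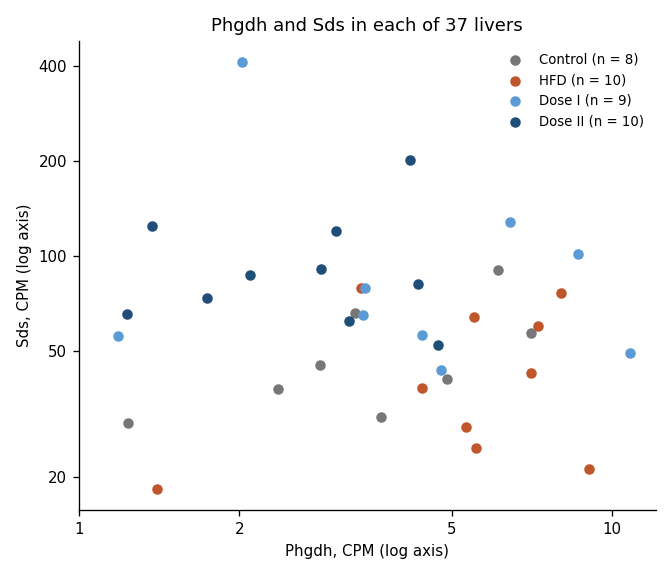
Phgdh against Sds in each of 37 livers, both in CPM on log axes, coloured by group. HFD livers (orange) lie mostly to the lower right and Dose II livers (dark blue) mostly to the upper left, and within a group Phgdh and Sds show little relation (rho 0.103 after group means were taken out).

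Gldc, the P protein that removes the carboxyl group of glycine, had its lowest mean in the HFD group, but no comparison of it passed the test. The HFD livers ranged from 65.3 to 180.9 CPM (median 71.9), the control livers from 76.1 to 163.2 (median 104.7), the Dose I livers from 61.3 to 194.7 (median 115.98) and the Dose II livers from 55.96 to 158.6 (median 103.9). Of the 10 HFD livers, 6 lay below every control liver used, and 8 of 9 Dose I livers and 9 of 10 Dose II livers lay above the HFD median. Control replicate 5, left out here, had 65.5 CPM, and of the HFD livers only replicate 1 (65.3 CPM) lay below that. The log2 fold change of Gldc was -0.33 for HFD vs. control (SE 0.21, 95% interval -0.76 to 0.11, edgeR adjusted p = 0.262), 0.45 for Dose I vs. HFD (SE 0.21, 95% interval 0.03 to 0.87, adjusted p = 0.489) and 0.32 for Dose II vs. HFD (SE 0.20, 95% interval -0.08 to 0.73, adjusted p = 0.403). HFD replicate 2 had the highest HFD level, 180.9 CPM. Without it the HFD vs. control value was -0.50 (edgeR adjusted p = 0.0507), and the value for both doses vs. HFD went from 0.39 (adjusted p = 0.248) to 0.57 (adjusted p = 0.0684).

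Amt, the T protein that hands the carbon unit to tetrahydrofolate, had the smallest spread within groups of the 6 genes, and no comparison of it passed the test. Its level was 147 ± 12.9 CPM (SD, n = 8) in controls, 136.2 ± 16.8 (n = 10) in the HFD group, 147 ± 19.8 (n = 9) in the Dose I group and 149 ± 12.4 (n = 10) in the Dose II group, and the highest group mean was 1.09 times the lowest. The log2 fold change of Amt was -0.11 for HFD vs. control (95% interval -0.27 to 0.05) and 0.13 for Dose II vs. HFD (95% interval -0.02 to 0.28). For Dose II vs. HFD a change of Amt as large as that of Sds (1.08) lay outside the interval. The SD of log2 CPM within groups was 0.160 for Amt and 0.206 for Glyctk, against 0.478 for Gldc, 0.553 for Psph, 0.739 for Phgdh and 0.746 for Sds.

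The L protein, Dld, which the system shares with the pyruvate and oxoglutarate dehydrogenases, fell by 0.22 on the log2 scale in the HFD group against the control group (SE 0.06, edgeR adjusted p = 0.00643). Its level went from 222 ± 16.6 CPM (SD, n = 8) to 191 ± 15.1 (n = 10) and stood at 199 CPM in both CMA groups. With CMA the log2 fold change of Dld was 0.06 at each dose, and neither was called.

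Glyctk, the glycerate kinase, returns glycerate, a product of serine breakdown by another route, to glycolysis. Mean Glyctk levels in rising order were 238 ± 36.3 CPM for control (SD, n = 8), 252 ± 27.0 for HFD (n = 10), 265 ± 44.8 in the Dose I group (n = 9) and 276 ± 38.6 in the Dose II group (n = 10), and no neighbours in this order passed the test. For Dose II vs. control the log2 fold change of Glyctk was 0.21 (SE 0.10, 95% interval 0.02 to 0.41, edgeR adjusted p = 0.0761), and all 10 Dose II livers were above the control median. Over 38 libraries that median was 237.6 CPM, and Dose II replicates 3 (237.5 CPM) and 5 (233.9 CPM) lay below it. The Glyctk call for Dose II vs. control depended on which libraries were used. Control replicate 5 had the highest Glyctk level of all 38 libraries in CPM, 362.9. Its TPM of 105.3 lay within the range of the other controls, 81.5 to 120.6. With this library the log2 fold change was 0.13 (edgeR adjusted p = 0.370). The call was also lost in 8 of 18 fits that left out 1 library (control replicates 1, 3, 6 and 7 and Dose II replicates 1, 6, 8 and 9), where the highest adjusted p was 0.171.

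Counted over the 6 genes, none was called for HFD vs. control, where 36.2% of all genes tested were called (18.1% higher and 18.1% lower), and none for Dose I vs. HFD, where 0.187% were (0.154% higher). Over 38 libraries none was called in either comparison, where 15.6% and 0.0553% of all genes were. At an unadjusted p under 0.05, edgeR gave 0 of the 6 for HFD vs. control and 2 (Sds and Gldc) for Dose I vs. HFD, and DESeq2 at an adjusted p under 0.1 gave 0 and 1 (Sds). For counts at an unadjusted p or by DESeq2 no share of all genes is given, and the shares above do not apply to them. For Dose II vs. HFD, 2 of 6 were called, Sds higher and Phgdh lower, against 5.63% of all genes, 3.37% higher and 2.25% lower. Over 38 libraries 1 of 6 was called (Sds), against 2.7% of all genes. For Dose II vs. Dose I none of the 6 was called, nor was any other gene (0%), while Phgdh had an unadjusted p of 0.0237 by edgeR with a log2 fold change of -0.77 (SE 0.33), and DESeq2 called none of the 6. Against the control group, 1 of 6 was called at Dose I (Sds, against 40.7% of all genes) and 2 at Dose II (Sds and Glyctk, 47.4% of all genes), so these counts were no higher than the share of all genes called. Over 38 libraries Sds alone was called at Dose II, against 32.9% of all genes. Comparisons of both doses share the same HFD livers.

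**Figure D4:**
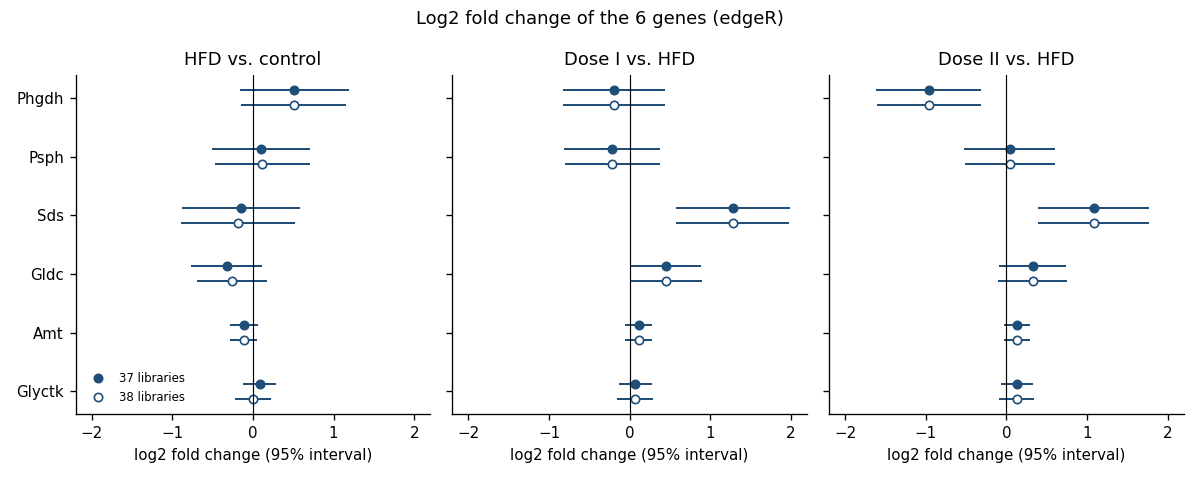
Log2 fold change of the 6 genes with its 95% interval in 3 comparisons, over 37 libraries (filled) and over all 38 (open). At Dose II the intervals of Phgdh (-0.96) and Sds (1.08) lie on opposite sides of 0, and those of Psph, Gldc, Amt and Glyctk include it.

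Other genes of serine, glycine and glycerate metabolism were counted from a list of 30, of which 28 were in the tables and 26 were tested. In the HFD group against the control group 9 of the 26 fell and 2 rose, against 18.1% of all genes in each direction, with a median log2 fold change of -0.18 against 0.01 for all genes. Over 38 libraries 9 fell and neither rise was called. Cth, which makes cysteine from cystathionine, fell by 0.77 on the log2 scale (SE 0.14, edgeR adjusted p = 1.63e-04). Dmgdh, the mitochondrial enzyme that turns dimethylglycine into sarcosine, fell by 0.39, Hao1, a peroxisomal glycolate oxidase, by 0.54, and Dao, the D-amino acid oxidase, by 0.41. At Dose II vs. HFD 8 of the 26 rose and none fell, against 3.37% and 2.25% of all genes (median 0.19 against -0.00 for all genes), and 7 of these were also called over 38 libraries. Gnmt, which methylates glycine to sarcosine, rose by 1.25 (SE 0.19, edgeR adjusted p = 1.60e-04), Dmgdh by 0.75, Bhmt2, a methyltransferase, by 0.72 and Shmt2 by 0.59 on the log2 scale. At Dose I vs. HFD 3 of the 26 rose (Dmgdh by 0.55, Bhmt2 by 0.56 and Gnmt by 0.81) and none fell, and over 38 libraries only Dmgdh was called. Of all genes 0.154% were called higher there over 37 libraries, and 0.0553% in either direction over 38.

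**Figure D5:**
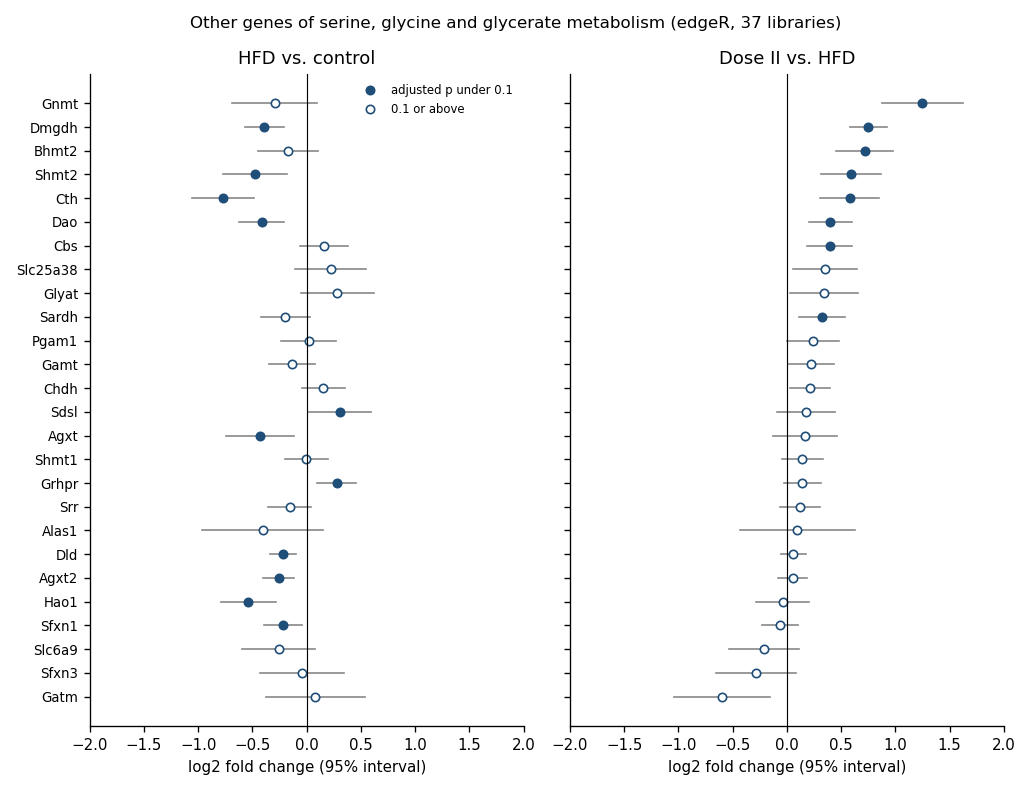
Log2 fold change with its 95% interval of 26 other genes of serine, glycine and glycerate metabolism for HFD vs. control and Dose II vs. HFD (edgeR, 37 libraries), ordered by the Dose II value, with filled points for genes called. On the left 9 of 11 filled points are below 0, and on the right all 8 are above 0, led by Gnmt at 1.25.

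Shmt2, the mitochondrial serine hydroxymethyltransferase, fell with HFD and rose at Dose II. Its level was 171 ± 24.2 CPM (SD, n = 8) in controls, 122.7 ± 38.8 (n = 10) in HFD livers, 170.7 ± 43.01 at Dose I (n = 9) and 185 ± 26.8 at Dose II (n = 10). Its log2 fold change was -0.48 for HFD vs. control (SE 0.15, edgeR adjusted p = 0.0128) and 0.59 for Dose II vs. HFD (SE 0.14, adjusted p = 0.0116). The cytosolic enzyme Shmt1 and the Sds relative Sdsl are given here after their values were seen. Shmt1 had 1391 ± 215 CPM in the HFD group and 1535 ± 197 at Dose II (n = 10 each), a log2 fold change of 0.14 (95% interval -0.05 to 0.33) that was not called. Sdsl rose by 0.31 with HFD (SE 0.14, edgeR adjusted p = 0.0990, lost over 38 libraries) and had a log2 fold change of 0.17 for Dose II vs. HFD (95% interval -0.09 to 0.44), against 1.08 for Sds.

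Among 10 genes of lipoate, which the H protein carries (its synthesis, its attachment and Dld, which reoxidises it), 3 rose and 2 fell with HFD, against 18.1% of all genes in each direction, and over 38 libraries only the 2 that fell (Dld and Oxsm) were called. Bola3, an iron-sulfur cluster factor, rose by 0.56 and Oxsm, of mitochondrial fatty acid synthesis, fell by 0.37 on the log2 scale (edgeR adjusted p = 6.99e-04 and 0.0109). At Dose II vs. HFD only Glrx5, another iron-sulfur cluster factor, was called (0.26 higher), and not over 38 libraries. Of 6 folate one-carbon genes tested, Shmt2 and the cytosolic enzyme Mthfd1 (0.24 higher) were called for Dose II vs. HFD, only Shmt2 over 38 libraries, and none for Dose I vs. HFD. For Dose II vs. HFD 3.37% of all genes were called higher over 37 libraries, and 2.7% in either direction over 38. For Dose I vs. HFD only 0.187% were called in either direction over 37 libraries.

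Phgdh and other serine synthesis genes are known targets of the amino acid stress factor Atf4. Of 19 listed genes of that response 13 were in the tables and only 7 passed the filter, and none of the 7 was called for either dose against HFD. With HFD, Atf3 and Ddit4, which respond to many kinds of stress, rose by 1.17 and 0.91 and Vldlr, a lipoprotein receptor, fell by 0.60 on the log2 scale, of which the fall of Vldlr was not called over 38 libraries. For HFD vs. control 18.1% of all genes were called in each direction over 37 libraries. Sds was also set beside 13 tested genes of fasting and glucagon. None of the 13 was called for Dose I vs. HFD, where 0.187% of all genes were, and their median log2 fold change there was 0.33. At Dose II vs. HFD 4 of the 13 rose and 1 fell (median 0.33), and over 38 libraries 3 rose and none fell. Of all genes 3.37% rose and 2.25% fell there over 37 libraries, and 2.7% were called in either direction over 38. Gpt2, the mitochondrial alanine aminotransferase, rose by 0.94 (SE 0.20, edgeR adjusted p = 0.00671), Got1, the cytosolic aspartate aminotransferase, by 0.53 and Cps1, the first enzyme of the urea cycle, by 0.45, while Slc38a2, an amino acid transporter, fell by 0.51.

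The genes whose level ranked most like each member over the 37 livers, group differences included, were given by Spearman correlation, with up to 3 of the highest per gene. For Sds they were Trim14 (0.766), Gpt2 (0.759) and Asl (0.741), and for Gldc they were Aadat (0.832) and Slc38a4 (0.779). For Amt they were Sdhc (0.750), Sdha (0.681) and Hgd (0.676), and for Glyctk Kyat1 (0.780), Acads (0.757) and Slc39a5 (0.756). For the 2 low genes the highest values were lower, 0.625 for Phgdh (with Thnsl2) and 0.585 for Psph (with Chrdl1).

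Markers of liver cell types moved with some of these comparisons. Beside them, 18.1% of all genes were called in each direction for HFD vs. control. For Dose II vs. HFD 3.37% were called higher and 2.25% lower. Over 38 libraries 15.6% and 2.7% were called in either direction in these 2 comparisons. For Dose I vs. HFD only 0.187% were called in either direction over 37 libraries and 0.0553% over 38. Of the Kupffer cell and macrophage markers 11 were tested, of which 7 rose with HFD (3 over 38 libraries) and 6 fell at Dose II vs. HFD (2 over 38 libraries), and their summed level was 201 to 282 CPM in the control group, 293 to 483 in the HFD group, 220 to 422 at Dose I and 202 to 390 at Dose II. Of 8 periportal hepatocyte markers, 3 (Ass1, Cps1 and Cyp2f2) rose at Dose II vs. HFD over both 37 and 38 libraries, and none was called at Dose I. The lists share genes and are not independent. Ass1 and Cps1 were also counted as hepatocyte markers, Cps1 and Pck1 among the genes of fasting, and Sdsl among those of serine. For the 8 periportal markers the median log2 fold change against HFD was 0.26 at Dose I and 0.41 at Dose II. Their summed level was 9483 to 12807 CPM in the control group and 6130 to 13018 in the HFD group. At Dose I it was 8606 to 18090 and at Dose II 10364 to 18811. With HFD 3 of the 8 fell and 1 rose, and over 38 libraries 2 fell and none rose. Sds is itself known as a periportal gene. Of 9 hepatocyte markers, led by Alb, 2 rose at Dose II and their sum ranged from 1.38e+05 to 2.03e+05 CPM in the HFD group and from 1.26e+05 to 1.99e+05 at Dose II. None of the Kupffer cell and macrophage markers was called for Dose I vs. HFD. Their log2 fold changes there ran from -0.68 to -0.26 (median -0.45), against a median of -0.48 for Dose II vs. HFD. Of 7 endothelial markers 2 fell at Dose II vs. HFD (1 over 38 libraries), and no marker of pericentral hepatocytes, stellate cells, cholangiocytes or lymphocytes was called there. The part of these shifts in the values of Phgdh, Sds and the other genes named above was not tested.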

How the data were processed

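Per the labels and the study's methods, liver RNA was sequenced, and the authors quantified transcripts with kallisto on MesAur1.0. The authors deposited estimated counts per gene symbol, not normalized, and TPM, which divides counts by transcript length and library total. Near-identical genes may share estimated counts. All columns matched labelled samples. The labels name no animals, so 1 library was counted as 1 animal and p-values measure the spread between these libraries. The estimated counts were rounded, filtered (filterByExpr), normalized (TMM) and tested with edgeR 4.0.16 in R 4.3.3 with 1 coefficient per group. Alternatives were DESeq2 1.42.0, RLE normalization, no filter, fits of the compared groups only, limma-trend (limma 3.58.1) on log2(TPM + 1) and log2(TPM + 0.1), a robust fit, a length-trend offset, a threshold of 0.05, all 38 libraries and each library left out in turn. The length-trend offset was run because levels varied with transcript length differently between groups. Over genes, a library's deviation from the mean correlated with length at a Spearman rho of 0.0983 to 0.329 in the controls used. It was -0.214 to 0.146 in HFD livers, -0.279 to 0.109 at Dose I and -0.288 to 0.0900 at Dose II. The procedure was tested on simulated data. Members, gene lists and the left-out control were chosen with earlier results of these data known. Named genes were all members present, at most 4 called genes with the smallest adjusted p per list and comparison, and the 3 genes most correlated with each member. Among these, 1 gene is not reported here. Members were matched by symbol, and no sequence or coordinate is given.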

Additional observations from a re-analysis of the deposited data

Results flagged for a closer look

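In 4 of the 24 combinations of gene and group, 1 liver lay far from the others by Dixon's criterion, which chance alone meets in about 1 of 20 groups. Sds was 410.9 CPM in Dose I replicate 8, where the next liver had 128.4 CPM, and 201.7 CPM in Dose II replicate 7, where the next had 124.5 CPM. Gldc was 180.9 CPM in HFD replicate 2, where the next had 124.1 CPM. Psph was 3.67 CPM in control replicate 8, where the next had 2.17 CPM.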

How the results depend on the processing

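No called value changed sign under any alternative run. For the alternatives below, a share of all genes is given above only over all 38 libraries. Of the 6 genes, 1 was called for Dose I vs. HFD by DESeq2 (Sds) against 0 by edgeR. For Dose II vs. HFD, 1 was called over all 38 libraries, 1 without the filter (Sds in both cases) and 0 at a threshold of 0.05, against 2. For Dose II vs. control, 1 was called over 38 libraries, by limma-trend on log2(TPM + 1), on log2(TPM + 0.1) and at a threshold of 0.05, against 2. Leaving out 1 library at a time gave 0 to 1 called for HFD vs. control, 0 to 1 for Dose I vs. HFD, 0 to 2 for Dose II vs. HFD, 0 to 1 for Dose I vs. control and 1 to 2 for Dose II vs. control. The 1 for HFD vs. control came without HFD replicate 2 (Gldc), and the 1 for Dose I vs. HFD without Dose I replicate 1 or 3 (Sds). The 0 for Dose II vs. HFD came without HFD replicate 5, 7 or 8 or Dose II replicate 8, and the 0 for Dose I vs. control without Dose I replicate 8. The cause was not tested. Phgdh and Psph had the fewest counts per library of the 6 genes.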
